A study of Mus musculus with 12 samples.

Results

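The G2/M and mitosis genes followed here are a list of 44 genes of mitotic entry, the spindle, the checkpoint, anaphase and cytokinesis, of which 42 had a row in the deposited table of 16116 genes. Ccnb1 and Cks2 had no row and were not analysed here. The genes were listed by function, with earlier results of these data known. All 42 genes passed a filter on low values (log2 CPM, that is read counts relative to the library total, of 1 or more in 2 or more libraries) which left 10681 genes in all. Of the 42, 39 would have passed on the 4 control libraries alone. Cdc25b, Cdc25c and Melk would not have passed there.

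The libraries came from mouse hepatocytes sorted after delivery of genes by adeno-associated virus (AAV) under the hepatocyte promoter TBG, in 6 groups of 2 libraries. In the YAP experiment, the Sox9-null group had the genotype Sox9 fl/fl and the Sox9-heterozygous group Sox9 fl/+, and both received AAV2/8-TBG-Cre together with AAV2/8-TBG-YAP S127A-P2A-GFP, which encodes a form of YAP that escapes Hippo kinase control. Their controls were wild type mice given AAV2/8-TBG-GFP. In the Mst experiment all mice were fl/fl at Mst1 and at Mst2, the upstream Hippo kinases, and carried ROSA26-lsl-TdTomato. The Sox9-null group was also Sox9 fl/fl and the Sox9-heterozygous group Sox9 fl/+, both given AAV2/8-TBG-Cre, and the floxed controls carried no floxed Sox9 allele in their label and received AAV2/8-TBG-GFP without Cre. Virus was injected at 3 weeks of age. Cells were sorted 3 weeks later in the YAP experiment (GFP+ in every group) and 4 weeks later in the Mst experiment (TdTomato+ for the deleted groups, GFP+ for the controls), and were negative for Epcam and CD45. Activated and control groups therefore differed in Cre, in Sox9 genotype and, in the Mst experiment, in the sorting colour, and these cannot be told apart. By their labels, Sox9-null and Sox9-heterozygous groups of an experiment differed in the Sox9 genotype alone. Whether libraries of a group are separate mice is not stated.

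A dividing cell enters mitosis when cyclins A and B activate Cdk1, assisted by Cdc25 phosphatases and by the Polo and Aurora kinases. Kinesins and microtubule-binding proteins then build the spindle, the Bub and Mad proteins hold anaphase until every chromosome is attached, and Cdc20 starts the anaphase-promoting complex that destroys cyclin B and securin. Adult hepatocytes are mostly quiescent and many are polyploid, and YAP, a coactivator of the TEAD transcription factors, is known to drive their proliferation when Hippo kinases are lost. Genes of late cell cycle phases are repressed in resting cells by the DREAM complex and activated by B-Myb and Foxm1 through a promoter element called the CHR, often placed next to CCAAT boxes.

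Because the genes moved together, their promoters are shown first. RefSeq sequence of GRCm38.p6, covering 250 bases before to 50 bases after the transcription start, was found for 34 of the 42 genes in 36 windows of 300 bases (Prc1 and Ect2 had 2 windows each). Ccna2, Cdc25c, Aurkb, Kif20a, Tpx2, Foxm1, Smc4 and Dlgap5 were not matched. The letters searched on both strands were TTTGAA and TTTAAA for the CHR, CCAAT for the CCAAT box, TTCCCGC and TTGGCGC for E2F and GGAATG for TEAD. TTTAAA is its own reverse complement, and the reverse of CCAAT can overlap the second E2F motif. Capitals mark the CHR letters, written TTCAAA where the match lies on the other strand, and the CCAAT box, written ATTGG on the other strand. Each window is written 5′ to 3′ on the strand of its gene. The first 4 genes, at chr9:70421505-70421804 (minus strand), chr4:118437294-118437593 (minus), chr7:122159185-122159484 (plus) and chr15:99651607-99651906 (minus), are shown because they were called in all 4 activated groups. Kif11 at chr19:37376132-37376431 (plus) is shown as a gene called in none of them, and Nusap1 at chr2:119618048-119618347 (plus) as one without either motif.
Ccnb2: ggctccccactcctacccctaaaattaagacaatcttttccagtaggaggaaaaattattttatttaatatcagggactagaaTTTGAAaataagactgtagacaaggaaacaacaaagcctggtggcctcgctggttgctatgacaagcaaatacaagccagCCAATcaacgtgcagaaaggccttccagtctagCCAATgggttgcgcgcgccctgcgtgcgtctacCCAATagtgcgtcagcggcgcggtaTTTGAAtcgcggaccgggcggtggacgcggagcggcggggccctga
Cdc20: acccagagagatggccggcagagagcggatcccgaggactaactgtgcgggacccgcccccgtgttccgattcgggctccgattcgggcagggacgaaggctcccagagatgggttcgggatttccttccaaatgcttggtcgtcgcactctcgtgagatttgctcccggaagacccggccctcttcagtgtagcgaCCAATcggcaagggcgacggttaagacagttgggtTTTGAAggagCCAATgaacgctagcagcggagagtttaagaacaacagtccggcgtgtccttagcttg
Plk1: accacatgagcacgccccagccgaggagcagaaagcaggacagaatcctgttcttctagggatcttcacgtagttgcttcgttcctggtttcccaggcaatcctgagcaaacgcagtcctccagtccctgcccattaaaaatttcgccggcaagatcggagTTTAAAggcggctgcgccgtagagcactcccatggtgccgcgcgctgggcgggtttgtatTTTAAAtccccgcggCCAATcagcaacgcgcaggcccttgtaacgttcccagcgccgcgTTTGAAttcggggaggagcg
Racgap1: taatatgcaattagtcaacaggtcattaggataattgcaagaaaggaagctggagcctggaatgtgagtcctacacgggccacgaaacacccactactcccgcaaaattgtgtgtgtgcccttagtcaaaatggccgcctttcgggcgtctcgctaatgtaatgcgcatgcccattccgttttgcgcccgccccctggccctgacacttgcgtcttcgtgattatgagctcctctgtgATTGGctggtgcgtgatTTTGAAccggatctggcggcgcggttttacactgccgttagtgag
Kif11: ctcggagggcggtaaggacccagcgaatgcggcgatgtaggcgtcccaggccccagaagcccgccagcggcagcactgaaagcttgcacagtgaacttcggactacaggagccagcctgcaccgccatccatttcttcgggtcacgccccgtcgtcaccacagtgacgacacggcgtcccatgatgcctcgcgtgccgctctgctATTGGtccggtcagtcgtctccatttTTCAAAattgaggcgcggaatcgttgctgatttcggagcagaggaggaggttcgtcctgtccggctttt
Nusap1: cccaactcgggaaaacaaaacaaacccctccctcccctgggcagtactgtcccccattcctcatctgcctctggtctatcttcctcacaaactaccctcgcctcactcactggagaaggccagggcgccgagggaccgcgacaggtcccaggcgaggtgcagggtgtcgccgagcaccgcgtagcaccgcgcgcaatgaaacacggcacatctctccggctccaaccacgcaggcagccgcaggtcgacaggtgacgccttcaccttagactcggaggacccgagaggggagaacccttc

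The CHR letters were present in 83.3% of the genes' windows, against 27.6% of all 32851 promoter windows of that length. CCAAT was present in 83.3% of the genes' windows, against 37.4% of all windows. Over the 10594 windows of the other kept genes these shares were 19.3% for the CHR letters and 37.3% for CCAAT. Both occurred together in 75% of the genes' windows, against 10.7% of all windows and 7.27% of those of other kept genes, and 72.2% of the genes' windows had the CHR letters within 50 bases of the start, against 8.28% of all windows and 4.93% of those of other kept genes. E2F letters were found in 16.7% of the genes' windows, in 6.81% of all windows and in 11.9% of those of other kept genes. TEAD letters were found in 13.9% of the genes' windows, in 14.7% of all windows and in 11.9% of those of other kept genes, and the Racgap1 window held 2 matches. Cdc25b, Bub1, Mad2l1, Nusap1, Melk and Nek2 had no CHR letters in the window, and Mad2l1, Nusap1 and Melk had neither CHR nor CCAAT. Kif11, which was called in no group, and Cdc20, called in every activated group, carried the same pair of motifs at similar distances before the start. These matches describe letters in a window and are not evidence of binding.

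The targeted genes were checked against the labels. Sox9 had 2.28 and 2.62 log2 CPM in the YAP Sox9-null libraries, 4.41 and 5.28 in the YAP Sox9-heterozygous libraries and 3.90 and 3.59 in the wild type controls. It had 1.41 and 1.29 in Mst Sox9-null libraries, 6.47 and 6.0 in Mst Sox9-heterozygous libraries and 4.33 and 3.13 in floxed controls. Sox9 fell by 2.40 (adjusted p = 0.0132) between the YAP Sox9-null and Sox9-heterozygous groups and by 4.88 (adjusted p = 6.31e-06) between the Mst groups. Ctgf, a direct YAP target, rose by 4.53, 4.49, 6.80 and 6.30 in YAP Sox9-null, YAP Sox9-heterozygous, Mst Sox9-null and Mst Sox9-heterozygous hepatocytes against their controls. Yap1 was called in the YAP Sox9-null group (adjusted p = 0.00556) and not in the others. Stk3 and Stk4, the genes of Mst2 and Mst1, were not called in the Mst groups, and the place of their amplicons relative to the deleted part is unknown. Reads per library are unknown, 9919 to 10392 genes reached log2 CPM 1 per library, and Pearson's r over kept genes between the 2 libraries of a group ranged between 0.953 and 0.982.

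Nearly all the mitotic genes were higher in Sox9-null activated hepatocytes than in GFP controls, and fewer of them passed the test with 1 Sox9 allele left. In the YAP experiment 37 of the 42 genes rose in the Sox9-null group against wild type controls, where 6.64% of all genes tested rose. In the Sox9-heterozygous group 11 rose, where 1.4% of all genes did. In the Mst experiment 30 rose in the Sox9-null group, where 6.88% of all genes did, and 8 rose in the Sox9-heterozygous group, where 3.45% did. The Sox9-null counts include genes that would not have passed the filter on the control libraries alone, Cdc25b in both experiments and Melk in the YAP experiment. None of the 42 genes fell, where 0.477%, 0.169%, 0.88% and 0.796% of all genes fell in the YAP Sox9-null, YAP Sox9-heterozygous, Mst Sox9-null and Mst Sox9-heterozygous groups. The median log2 difference of the 42 genes was 2.27 in YAP Sox9-null, 1.44 in YAP Sox9-heterozygous, 1.90 in Mst Sox9-null and 0.95 in Mst Sox9-heterozygous hepatocytes. Over all kept genes the same medians were 0.21, 0.07, 0.17 and 0.08. Setting the median of every library equal moved the median of all genes in these comparisons to -0.06, -0.02, -0.07 and -0.03, and that of the 42 genes to 2.01, 1.35, 1.66 and 0.85. The same number of genes were above 0 as before, 42, 42 and 39, except in Mst Sox9-null hepatocytes, where Bub1 turned below 0 and 41 stayed above. Calls are from limma with Benjamini-Hochberg adjustment over 10681 genes at an adjusted p under 0.05.

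**Figure D1:**
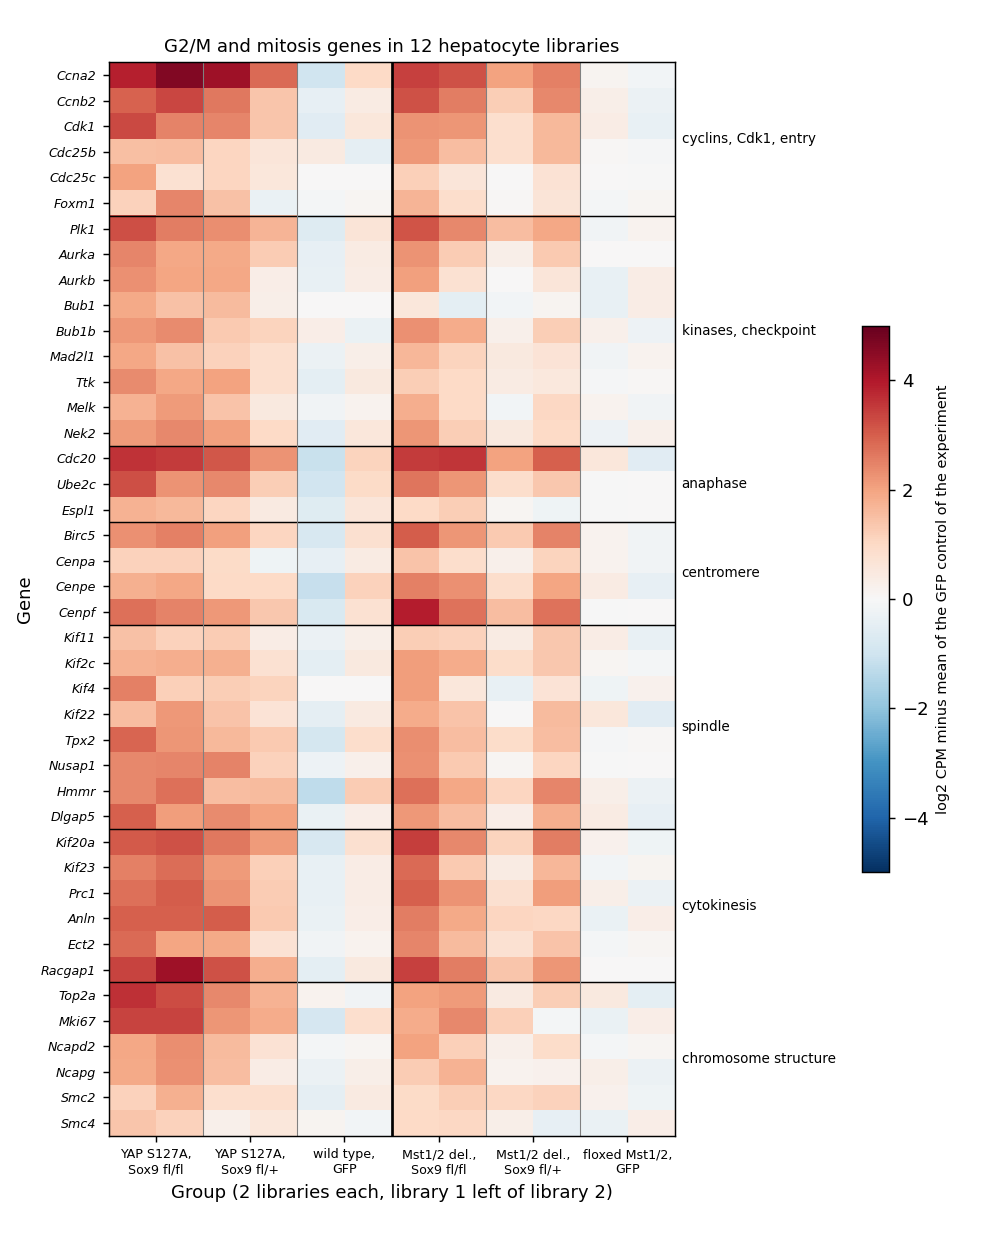
Log2 CPM of each of the 42 genes in each of the 12 libraries (columns, library 1 left of library 2 in each group) minus the mean of the GFP control group of the same experiment, with genes grouped by role. Red is higher than the control mean; the YAP Sox9-null columns are red for all 42 genes, and the Cdc20 and Ccna2 rows are among the deepest red across the activated groups.

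Summed over the 42 genes, linear CPM was 1418 and 1415 in the YAP Sox9-null libraries, 988 and 558 in the YAP Sox9-heterozygous libraries and 173 and 319 in the wild type controls. In the Mst experiment the sums were 1257 and 882 in the Sox9-null libraries, 412 and 685 in the Sox9-heterozygous libraries and 237 and 226 in the floxed controls. No activated library reached down to its controls in this sum. For single genes, both YAP Sox9-null libraries lay above both controls for 42 genes, where 40.5% of all genes did, and the YAP Sox9-heterozygous libraries for 37, where 21.6% did. The Mst Sox9-null libraries did so for 41, where 39.6% of all genes did, and the Mst Sox9-heterozygous libraries for 28, where 29.2% did. By the sum, in each experiment the Sox9-null libraries lay above both Sox9-heterozygous libraries. The group means were 5.77 and 3.15 times the control mean in the YAP Sox9-null and Sox9-heterozygous groups, and 4.62 and 2.37 times in the Mst Sox9-null and Sox9-heterozygous groups. In bulk RNA, more cells in division and more mitotic RNA per cell cannot be told apart. The Sox9-null group had the higher mean in both experiments for 41 of the 42 genes, Smc2 being the exception. By group mean, YAP Sox9-null ranked highest for 36 genes and Mst Sox9-null for 6.

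**Figure D2:**
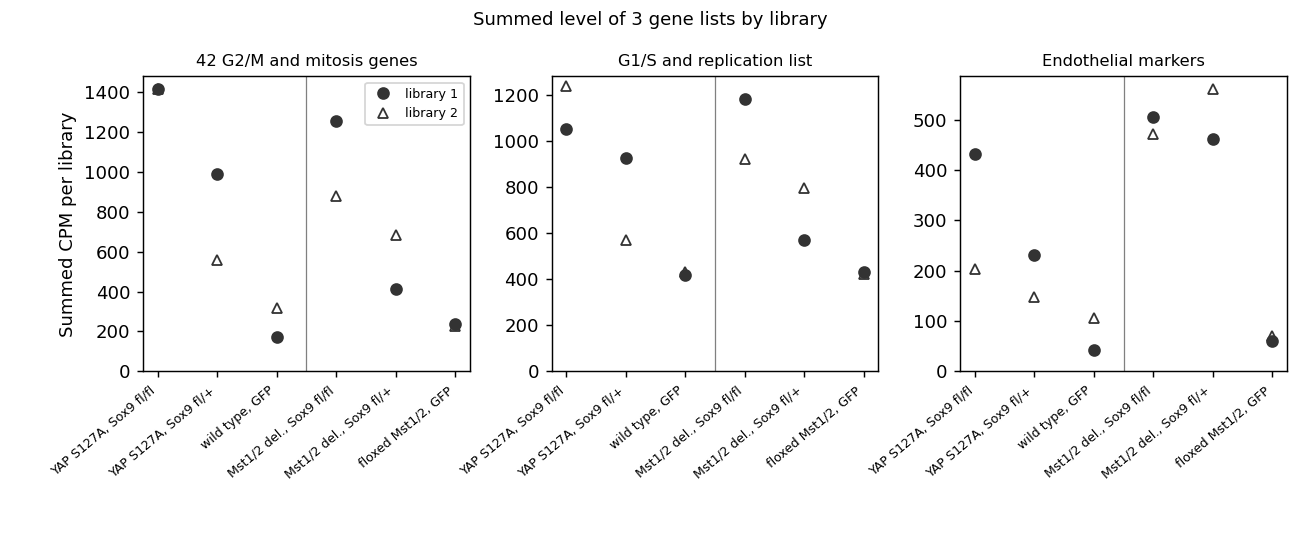
Summed linear CPM per library (vertical axis, starting at 0) of the 42 G2/M and mitosis genes, of the G1/S and replication list and of the endothelial markers, in the 6 groups; filled circles are library 1 and open triangles library 2. The mitotic sum lies at 1418 and 1415 in YAP Sox9-null libraries and at 173 and 319 in their controls, and the endothelial sum at 506 and 473 in Mst Sox9-null, 462 and 561 in Mst Sox9-heterozygous and 59.6 and 69.4 in floxed control libraries.

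The number of calls depended on single libraries. In the YAP Sox9-null group it was 17 without library 1 of the wild type controls, 23 without library 1 and 24 without library 2 of the YAP Sox9-null group itself. In the YAP Sox9-heterozygous group it was 2 without library 1 of the wild type controls and 1 without its own library 1. In the Mst Sox9-null group it was 13 without its own library 1 and 17 without library 1 of the floxed controls. For the Mst Sox9-heterozygous group it was 1 or 0 without library 1 or 2 of the floxed controls, 0 without its own library 2 and 5 without either YAP Sox9-null library. Whichever single library was left out, 15 genes stayed called in YAP Sox9-null, 12 in Mst Sox9-null and Ccna2 alone in YAP Sox9-heterozygous hepatocytes. Without the filter on low values the counts were 24, 1, 15 and 0 in the YAP Sox9-null, YAP Sox9-heterozygous, Mst Sox9-null and Mst Sox9-heterozygous groups.

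Ccna2, Ccnb2, Cdc20, Kif20a, Plk1 and Racgap1 were called in all 4 activated groups, and 29 genes in both Sox9-null groups. The shares of all genes called in these combinations are not given here. Aurkb, Bub1, Espl1, Kif22, Kif4, Melk, Smc2 and Ttk were called in the YAP and not in the Mst Sox9-null group, and Cenpe in the Mst and not in the YAP one. These differences in calling are not tests of a difference between experiments, which are given further on. Cdc25c, Cenpa, Foxm1 and Kif11 were called in none of the 4 comparisons with controls.

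**Figure D3:**
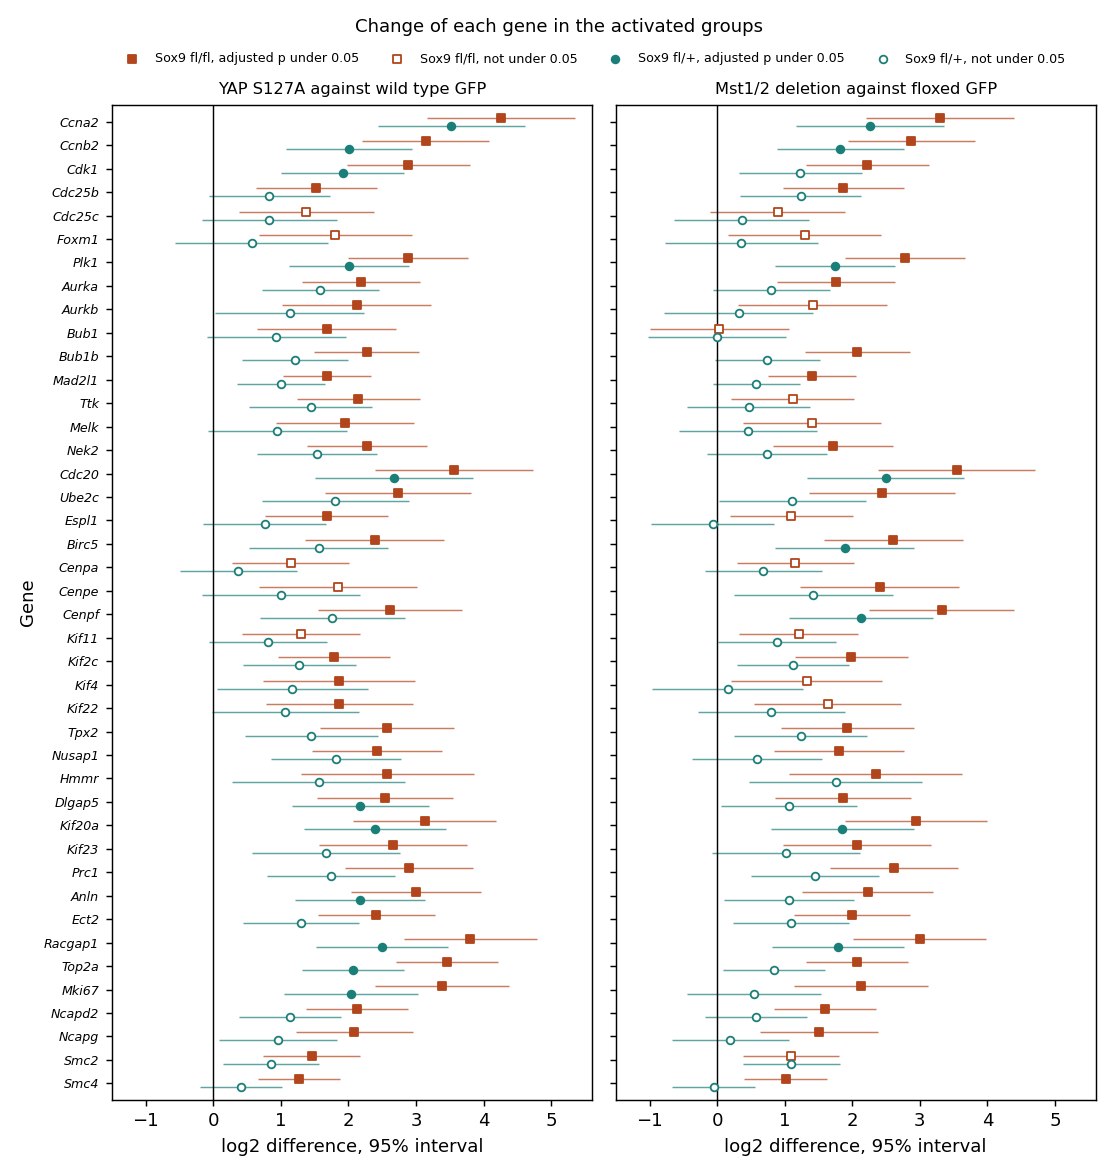
Log2 difference of each gene from the GFP control of its experiment (horizontal axis, point with 95% interval) for the YAP (left) and Mst1/2 (right) experiments, with Sox9 fl/fl as squares above Sox9 fl/+ as circles and filled symbols for an adjusted p under 0.05. The squares lie right of the circles for nearly every gene, and filled circles are few.

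Among the 6 measured genes of mitotic entry, 4 rose in each Sox9-null group, 3 in YAP Sox9-heterozygous and 2 in Mst Sox9-heterozygous hepatocytes. Of all genes, 6.64% rose in YAP Sox9-null, 1.4% in YAP Sox9-heterozygous, 6.88% in Mst Sox9-null and 3.45% in Mst Sox9-heterozygous hepatocytes. These shares also stand beside the counts of the other roles below. Ccna2, cyclin A2, which acts in S phase and in mitotic entry, had 6.58 and 7.34 log2 CPM in the YAP Sox9-null libraries, 6.93 and 5.53 in the YAP Sox9-heterozygous libraries and 1.72 and 3.69 in wild type controls. It had 6.11 and 5.90 in Mst Sox9-null, 4.73 and 5.21 in Mst Sox9-heterozygous and 2.84 and 2.57 in floxed control libraries. Every activated library lay above every control library. The differences from control were 4.25 ± 0.51 (SE; adjusted p = 8.01e-05) in YAP Sox9-null and 3.52 ± 0.51 (adjusted p = 0.00141) in YAP Sox9-heterozygous hepatocytes. They were 3.30 ± 0.51 (adjusted p = 7.31e-04) in Mst Sox9-null and 2.27 ± 0.51 (adjusted p = 0.0176) in Mst Sox9-heterozygous hepatocytes. Ccnb2, cyclin B2, rose by 3.15 in YAP Sox9-null, 2.01 in YAP Sox9-heterozygous, 2.87 in Mst Sox9-null and 1.82 in Mst Sox9-heterozygous hepatocytes.

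Cdk1, the mitotic cyclin-dependent kinase, had 6.14 and 5.32 log2 CPM in YAP Sox9-null libraries, 5.27 and 4.25 in YAP Sox9-heterozygous libraries and 2.29 and 3.40 in wild type controls. It had 5.11 and 5.06 in Mst Sox9-null, 3.71 and 4.48 in Mst Sox9-heterozygous and 3.22 and 2.51 in floxed control libraries. No activated library overlapped its controls, and Cdk1 rose by 2.88 ± 0.43 (adjusted p = 5.92e-04) in YAP Sox9-null and by 2.22 ± 0.43 (adjusted p = 0.0039) in Mst Sox9-null hepatocytes. It also rose by 1.91 ± 0.43 (adjusted p = 0.0322) in YAP Sox9-heterozygous hepatocytes, while the Mst Sox9-heterozygous difference of 1.23 ± 0.43 was not called (adjusted p = 0.141). The phosphatase gene Cdc25b rose by 1.53 in YAP Sox9-null and by 1.87 in Mst Sox9-null hepatocytes, and would not have passed the filter on the control libraries alone. Foxm1, the transcription factor of late cell cycle genes, was called nowhere. Its levels were 2.72 and 3.99 in YAP Sox9-null, 3.01 and 1.24 in YAP Sox9-heterozygous and 1.47 and 1.63 in wild type libraries. Its Mst levels were 3.28 and 2.45 in Sox9-null, 1.62 and 2.23 in Sox9-heterozygous and 1.45 and 1.68 in control libraries. Both Sox9-null groups lay above their controls without overlap and both heterozygous groups overlapped them, with a YAP Sox9-null difference of 1.80 (95% interval 0.67 to 2.93, adjusted p = 0.0527). Cdc25c, a phosphatase that removes the inhibitory phosphates of Cdk1, was low throughout, at 2.65 and 1.40 in YAP Sox9-null, 1.73 and 1.22 in YAP Sox9-heterozygous and 0.65 and 0.65 in wild type libraries. It had 1.84 and 1.24 in Mst Sox9-null, 0.65 and 1.37 in Mst Sox9-heterozygous and 0.67 and 0.62 in floxed control libraries, and its difference from control was 0.90 in the Mst Sox9-null group (adjusted p = 0.32).

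All 9 mitotic kinase and checkpoint genes rose in YAP Sox9-null hepatocytes and 5 rose in Mst Sox9-null hepatocytes. Plk1, the Polo kinase, was the 1 gene of the group called in either heterozygous group. It had 5.09 and 4.44 log2 CPM in YAP Sox9-null, 4.22 and 3.57 in YAP Sox9-heterozygous and 1.22 and 2.54 in wild type libraries. Plk1 had 5.06 and 4.34 in Mst Sox9-null, 3.46 and 3.87 in Mst Sox9-heterozygous and 1.75 and 2.09 in floxed control libraries. All 8 activated libraries lay above all 4 controls, with differences of 2.88 ± 0.41 (adjusted p = 4.62e-04) in YAP Sox9-null and 2.78 ± 0.41 (adjusted p = 5.31e-04) in Mst Sox9-null hepatocytes. The heterozygous differences were 2.01 in the YAP and 1.74 in the Mst experiment. Aurka, the centrosomal Aurora kinase, had 5.06 and 4.56 in YAP Sox9-null, 4.53 and 3.89 in YAP Sox9-heterozygous and 2.20 and 3.04 in wild type libraries. Its Mst values were 4.90 and 3.91 in Sox9-null, 2.95 and 3.95 in Sox9-heterozygous and 2.65 and 2.65 in control libraries. Activated and control libraries of an experiment did not overlap, and Aurka rose by 2.19 ± 0.41 in YAP Sox9-null and 1.76 ± 0.41 in Mst Sox9-null hepatocytes (adjusted p = 0.00349 and 0.0137).

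Aurkb, the catalytic subunit of the chromosomal passenger complex, had 3.81 and 3.5 log2 CPM in YAP Sox9-null, 3.45 and 1.88 in YAP Sox9-heterozygous and 1.17 and 1.89 in wild type libraries. It had 3.62 and 2.33 in Mst Sox9-null, 1.58 and 2.18 in Mst Sox9-heterozygous and 1.19 and 1.93 in floxed control libraries. Both heterozygous groups overlapped their controls. Aurkb rose by 2.12 ± 0.52 in YAP Sox9-null hepatocytes (adjusted p = 0.0211), and the Mst Sox9-null difference of 1.41 ± 0.52 was not called (adjusted p = 0.127). Bub1b, which encodes the checkpoint protein BubR1, had 4.09 and 4.29 in YAP Sox9-null, 3.23 and 3.03 in YAP Sox9-heterozygous and 2.25 and 1.59 in wild type libraries. Its Mst values were 4.21 and 3.78 in Sox9-null, 2.17 and 3.16 in Sox9-heterozygous and 2.17 and 1.66 in control libraries. Bub1b rose by 2.27 ± 0.37 and 2.08 ± 0.37 in the YAP and Mst Sox9-null groups (adjusted p = 0.00115 and 0.00201), and 1 Mst Sox9-heterozygous library equalled a control at 2 decimals. Bub1, the kinase that recruits checkpoint proteins to kinetochores, had 3.05 and 2.59 in YAP Sox9-null, 2.71 and 1.45 in YAP Sox9-heterozygous and 1.14 and 1.14 in wild type libraries, and rose by 1.68 ± 0.48 in the YAP Sox9-null group (adjusted p = 0.0468). With 1.72 and 0.64 in Mst Sox9-null, 1.01 and 1.28 in Mst Sox9-heterozygous and 0.75 and 1.53 in floxed control libraries it overlapped its controls, and the Mst Sox9-null difference was 0.04 (95% interval -0.99 to 1.06). The other kinase and checkpoint genes, Mad2l1, Ttk, Melk and Nek2, rose by 1.69, 2.15, 1.95 and 2.27 in YAP Sox9-null hepatocytes. Mad2l1 and Nek2 also rose in Mst Sox9-null hepatocytes, by 1.40 and 1.71. Melk would not have passed the filter on the control libraries alone.

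Of the 3 anaphase genes, all rose in YAP Sox9-null, 2 in Mst Sox9-null and 1 in each heterozygous group. Cdc20, the activator of the anaphase-promoting complex, had 6.63 and 6.51 log2 CPM in YAP Sox9-null, 6.11 and 5.25 in YAP Sox9-heterozygous and 1.90 and 4.12 in wild type libraries. It had 6.53 and 6.61 in Mst Sox9-null, 5.02 and 6.01 in Mst Sox9-heterozygous and 3.57 and 2.47 in floxed control libraries. The wild type libraries stood far apart, and all activated libraries were above both. Cdc20 rose by 3.56 ± 0.55 and 3.54 ± 0.55 in the YAP and Mst Sox9-null groups (adjusted p = 7.85e-04 and 7.16e-04). It rose by 2.67 ± 0.55 and 2.49 ± 0.55 in the YAP and Mst heterozygous groups (adjusted p = 0.0193 and 0.0145). Ube2c, the ubiquitin-conjugating enzyme of that complex, had 5.63 and 4.68 in YAP Sox9-null, 4.81 and 3.64 in YAP Sox9-heterozygous and 1.48 and 3.36 in wild type libraries. Its Mst values were 5.13 and 4.64 in Sox9-null, 3.34 and 3.78 in Sox9-heterozygous and 2.43 and 2.47 in control libraries. It was called in the Sox9-null groups and not in the heterozygous ones, rising by 2.73 ± 0.51 in the YAP and 2.44 ± 0.51 in the Mst experiment (adjusted p = 0.0034 and 0.00683). Espl1, the separase that cuts cohesin, had 2.75 and 2.61 in YAP Sox9-null, 2.08 and 1.46 in YAP Sox9-heterozygous and 0.38 and 1.62 in wild type libraries. It had 2.01 and 2.23 in Mst Sox9-null, 1.11 and 0.80 in Mst Sox9-heterozygous and 1.0 and 1.03 in floxed control libraries. The Mst heterozygous libraries straddled the controls, and Espl1 rose in YAP Sox9-null hepatocytes by 1.68 ± 0.43 (adjusted p = 0.0256).

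Among the 4 centromere and passenger genes, 2 rose in YAP Sox9-null, none in YAP Sox9-heterozygous (2 at an unadjusted p under 0.05 in limma), 3 in Mst Sox9-null and 2 in Mst Sox9-heterozygous hepatocytes. Birc5, survivin, had 4.82 and 5.05 log2 CPM in YAP Sox9-null, 4.57 and 3.63 in YAP Sox9-heterozygous and 1.76 and 3.32 in wild type libraries. It had 5.56 and 4.73 in Mst Sox9-null, 3.85 and 5.01 in Mst Sox9-heterozygous and 2.71 and 2.38 in floxed control libraries. Birc5 rose by 2.39 ± 0.48 in YAP Sox9-null, 2.60 ± 0.48 in Mst Sox9-null and 1.89 ± 0.48 in Mst Sox9-heterozygous hepatocytes (adjusted p = 0.00598, 0.00297 and 0.0371). Cenpf, a kinetochore protein that accumulates in G2, had 5.05 and 4.77 in YAP Sox9-null, 4.47 and 3.65 in YAP Sox9-heterozygous and 1.51 and 3.07 in wild type libraries. It had 6.22 and 5.0 in Mst Sox9-null, 3.84 and 5.01 in Mst Sox9-heterozygous and 2.26 and 2.33 in floxed control libraries. All Mst-deleted libraries lay well above the floxed controls, and Cenpf rose by 3.32 ± 0.50 in the Sox9-null and 2.13 ± 0.50 in the Sox9-heterozygous group (adjusted p = 5.94e-04 and 0.0229). Cenpa, the histone H3 variant of centromeres, had 4.24 and 4.24 in YAP Sox9-null, 4.07 and 2.87 in YAP Sox9-heterozygous and 2.70 and 3.49 in wild type libraries. It had 4.54 and 3.98 in Mst Sox9-null, 3.34 and 4.23 in Mst Sox9-heterozygous and 3.28 and 2.93 in floxed control libraries. Its differences were among the smallest, 1.15 (95% interval 0.28 to 2.01) in YAP Sox9-null and 1.16 (0.29 to 2.02) in Mst Sox9-null hepatocytes, and none was called. The kinetochore motor gene Cenpe rose in Mst Sox9-null hepatocytes, by 2.40 (adjusted p = 0.0126), and had 1.85 in YAP Sox9-null hepatocytes (adjusted p = 0.0551).

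Of the 8 spindle genes, 7 rose in YAP Sox9-null, 5 in Mst Sox9-null, 1 in YAP Sox9-heterozygous and none in Mst Sox9-heterozygous hepatocytes (5 at an unadjusted p under 0.05 in limma). Tpx2, which activates Aurka on spindle microtubules, had 5.21 and 4.51 log2 CPM in YAP Sox9-null, 3.90 and 3.58 in YAP Sox9-heterozygous and 1.41 and 3.18 in wild type libraries. It had 4.60 and 3.83 in Mst Sox9-null, 3.21 and 3.85 in Mst Sox9-heterozygous and 2.24 and 2.35 in floxed control libraries. Tpx2 rose by 2.57 ± 0.46 and 1.93 ± 0.46 in the YAP and Mst Sox9-null groups (adjusted p = 0.00276 and 0.0171). Kif11, the kinesin Eg5 that separates the spindle poles, had 3.36 and 3.06 in YAP Sox9-null, 3.18 and 2.27 in YAP Sox9-heterozygous and 1.61 and 2.20 in wild type libraries. It had 3.17 and 3.09 in Mst Sox9-null, 2.34 and 3.28 in Mst Sox9-heterozygous and 2.31 and 1.53 in floxed control libraries. Activated libraries lay above controls in both experiments, and differences of 1.30 in YAP Sox9-null and 1.21 in Mst Sox9-null hepatocytes were not called (adjusted p = 0.0723 and 0.0948). Kif2c, the microtubule-depolymerising kinesin MCAK, had 3.32 and 3.41 in YAP Sox9-null, 3.37 and 2.35 in YAP Sox9-heterozygous and 1.10 and 2.06 in wild type libraries. It had 3.70 and 3.47 in Mst Sox9-null, 2.5 and 2.94 in Mst Sox9-heterozygous and 1.69 and 1.51 in floxed control libraries. Kif2c rose by 1.78 and 1.99 in the YAP and Mst Sox9-null groups (adjusted p = 0.0104 and 0.00457). Dlgap5, which stabilises kinetochore fibres, had 4.56 and 3.69 in YAP Sox9-null, 3.93 and 3.60 in YAP Sox9-heterozygous and 1.26 and 1.91 in wild type libraries. It had 3.78 and 3.15 in Mst Sox9-null, 1.92 and 3.42 in Mst Sox9-heterozygous and 2.02 and 1.19 in floxed control libraries. Dlgap5 was the spindle gene called in YAP Sox9-heterozygous hepatocytes, at 2.18 ± 0.47 (adjusted p = 0.0272). Kif4, Kif22, Nusap1 and Hmmr rose by 1.86, 1.87, 2.42 and 2.58 in YAP Sox9-null hepatocytes.

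All 6 cytokinesis genes rose in both Sox9-null groups, and 3 rose in YAP Sox9-heterozygous and 2 in Mst Sox9-heterozygous hepatocytes. Racgap1, the GTPase-activating subunit of centralspindlin, had 5.67 and 6.54 log2 CPM in YAP Sox9-null, 5.48 and 4.11 in YAP Sox9-heterozygous and 1.82 and 2.78 in wild type libraries. It had 5.74 and 4.87 in Mst Sox9-null, 3.68 and 4.51 in Mst Sox9-heterozygous and 2.31 and 2.31 in floxed control libraries. No 2 groups of an experiment overlapped. Racgap1 rose by 3.81 ± 0.46 and 3.00 ± 0.46 in the YAP and Mst Sox9-null groups (adjusted p = 8.50e-05 and 6.91e-04). It rose by 2.5 ± 0.46 and 1.79 ± 0.46 in the YAP and Mst heterozygous groups (adjusted p = 0.00865 and 0.0388). Prc1, which bundles microtubules of the central spindle, had 4.76 and 5.03 in YAP Sox9-null, 4.23 and 3.25 in YAP Sox9-heterozygous and 1.62 and 2.36 in wild type libraries. It had 5.01 and 4.25 in Mst Sox9-null, 2.81 and 4.12 in Mst Sox9-heterozygous and 2.30 and 1.73 in floxed control libraries. Again no groups of an experiment overlapped, and Prc1 rose by 2.90 ± 0.45 and 2.62 ± 0.45 in the YAP and Mst Sox9-null groups (adjusted p = 7.74e-04 and 0.00151). Anln, the scaffold anillin of the contractile ring, had 4.87 and 4.87 in YAP Sox9-null, 4.91 and 3.18 in YAP Sox9-heterozygous and 1.53 and 2.21 in wild type libraries. It had 4.45 and 3.79 in Mst Sox9-null, 2.97 and 2.94 in Mst Sox9-heterozygous and 1.55 and 2.23 in floxed control libraries. One YAP Sox9-heterozygous library reached the Sox9-null level and the other did not, and Anln rose by 3.00 ± 0.45 in YAP Sox9-null and by 2.17 ± 0.45 in YAP Sox9-heterozygous hepatocytes (adjusted p = 7.11e-04 and 0.0219). The kinesins Kif20a and Kif23 rose by 3.13 and 2.66 in YAP Sox9-null hepatocytes. The cytokinesis gene Ect2 rose by 2.41 in YAP Sox9-null and 1.99 in Mst Sox9-null hepatocytes.

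The 6 chromosome structure genes all rose in YAP Sox9-null hepatocytes, 5 rose in Mst Sox9-null, 2 in YAP Sox9-heterozygous and none in Mst Sox9-heterozygous hepatocytes (2 at an unadjusted p under 0.05 in limma). Top2a, the topoisomerase that untangles sister chromatids, had 6.38 and 6.0 log2 CPM in YAP Sox9-null, 5.14 and 4.46 in YAP Sox9-heterozygous and 2.92 and 2.54 in wild type libraries. It had 4.77 and 4.90 in Mst Sox9-null, 3.21 and 4.00 in Mst Sox9-heterozygous and 3.25 and 2.29 in floxed control libraries. The 3 YAP groups did not overlap, whereas a Mst heterozygous library fell among the floxed controls. Top2a rose by 3.46 ± 0.36 in YAP Sox9-null, 2.07 ± 0.36 in YAP Sox9-heterozygous and 2.07 ± 0.36 in Mst Sox9-null hepatocytes (adjusted p = 1.83e-05, 0.00494 and 0.00165). Mki67, the gene of the proliferation antigen Ki-67, had 6.76 and 6.74 in YAP Sox9-null, 5.59 and 5.23 in YAP Sox9-heterozygous and 2.54 and 4.19 in wild type libraries. Its Mst values were 5.23 and 5.79 in Sox9-null, 4.57 and 3.28 in Sox9-heterozygous and 3.04 and 3.71 in control libraries. Library 1 of the Mst heterozygous group lay above the floxed controls and library 2 between them. Mki67 rose by 3.38 ± 0.47 in YAP Sox9-null, 2.04 ± 0.47 in YAP Sox9-heterozygous and 2.13 ± 0.47 in Mst Sox9-null hepatocytes (adjusted p = 3.03e-04, 0.0371 and 0.00929).

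Smc4, a core condensin subunit, had 5.83 and 5.62 log2 CPM in YAP Sox9-null, 4.70 and 5.03 in YAP Sox9-heterozygous and 4.60 and 4.31 in wild type libraries. It had 5.45 and 5.49 in Mst Sox9-null, 4.75 and 4.06 in Mst Sox9-heterozygous and 4.13 and 4.78 in floxed control libraries. The Mst heterozygous libraries overlapped the controls, and in both experiments the Sox9-null libraries stood above all others. Smc4 rose by 1.27 ± 0.29 and 1.01 ± 0.29 in the YAP and Mst Sox9-null groups (adjusted p = 0.0126 and 0.041), among the smallest called differences. Its partner Smc2 had 3.70 and 4.32 in YAP Sox9-null, 3.41 and 3.41 in YAP Sox9-heterozygous and 2.11 and 3.00 in wild type libraries. It had 3.49 and 3.76 in Mst Sox9-null, 3.56 and 3.70 in Mst Sox9-heterozygous and 2.75 and 2.32 in floxed control libraries. The Sox9-null and heterozygous libraries overlapped in the Mst experiment and not in the YAP experiment. Smc2 rose in YAP Sox9-null hepatocytes, by 1.46 ± 0.34 (adjusted p = 0.0145). The condensin I genes Ncapd2 and Ncapg rose by 2.13 and 2.09 in YAP Sox9-null and by 1.60 and 1.51 in Mst Sox9-null hepatocytes.

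Loss of the second Sox9 allele was compared among activated libraries that all carried Cre. In the YAP experiment all 42 genes had a positive difference and in the Mst experiment 41 did, with medians of 0.86 and 1.01 against 0.15 and 0.09 over all kept genes. With library medians set equal, the medians were 0.69 and 0.87 against -0.02 and -0.04, with 42 and 40 genes above 0 and Bub1 turning below 0 beside Smc2. No gene passed the adjusted threshold in limma in either experiment, where 0.112% of all genes were called higher under YAP S127A and 0.0187% after Mst1/2 deletion. At an unadjusted p under 0.05 there were 15 of the 42 genes under YAP S127A and 23 after Mst1/2 deletion, against 707 and 629 of the 10681 kept genes. Both Sox9-null libraries lay above both heterozygous libraries for 30 genes in the YAP experiment, where 23.1% of all genes did so, and for 25 in the Mst experiment, where 22.8% did. The median difference was 0.47 without library 2 and 1.29 without library 1 of the YAP heterozygous group, and in the Mst experiment 0.57 without library 1 of the Sox9-null group and 0.59 without library 1 of the heterozygous group. For 18 genes, or 42.9%, both Sox9-null libraries lay above both heterozygous libraries in both experiments, against 707 of 10681 kept genes, or 6.62%. These were Ccnb2, Cdk1, Cdc20, Plk1, Aurkb, Bub1b, Mad2l1, Nek2, Espl1, Cenpe, Prc1, Ect2, Racgap1, Top2a, Mki67, Ncapd2, Ncapg and Smc4.

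The largest differences by Sox9 loss under YAP S127A were 1.40 ± 0.36 for Top2a (SE; adjusted p = 0.233), 1.34 ± 0.47 for Mki67 (adjusted p = 0.517) and 1.31 ± 0.46 for Racgap1 (adjusted p = 0.528). The smallest were 0.36 ± 0.47 for Dlgap5, 0.48 ± 0.41 for Kif11 and 0.51 ± 0.39 for Kif2c. After Mst1/2 deletion the largest were 1.58 ± 0.47 for Mki67 (adjusted p = 0.511), 1.33 ± 0.37 for Bub1b (adjusted p = 0.485) and 1.32 ± 0.51 for Ube2c (adjusted p = 0.735). The smallest were Smc2, with 95% interval -0.72 to 0.71, 0.04 ± 0.48 for Bub1 and 0.32 ± 0.41 for Kif11. By role, the median difference under YAP S127A ran between 0.65 for the spindle and 1.06 for chromosome structure genes. After Mst1/2 deletion it ran between 0.82 for the spindle and 1.17 for the anaphase genes. Averaged over both experiments in the same fit, all 42 genes had a positive Sox9-loss effect, with a median of 0.94 against 0.13 over all kept genes. None passed the adjusted threshold in limma, where 0.0936% of all genes were called higher, and 36 of the 42 genes and 1008 of the 10681 kept genes had an unadjusted p under 0.05. Top2a came nearest, at 1.31 ± 0.25 (adjusted p = 0.0605). Without library 1 of the YAP Sox9-heterozygous group, 6 genes passed, without either Mst Sox9-heterozygous library 2 did, and without either floxed control library 1 did.

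The deposited within-group deviations were wider than the steps of the group means, by a factor that differed between genes, with a median of 2.01 for the 42 genes and 1.58 for all kept genes. No source used here describes that step. With the deviations put back on the step of the group means, 13 of the 42 genes were called higher by Sox9 loss under YAP S127A, where 3.8% of all genes were. Then 11 were called after Mst1/2 deletion, where 1.46% of all genes were, and 31 over both experiments, where 6.74% were. On that scale Top2a had 1.40 ± 0.17 (adjusted p = 0.0028) under YAP S127A, and Mki67 and Bub1b had 1.58 ± 0.27 and 1.33 ± 0.18 (adjusted p = 0.0245 and 0.0116) after Mst1/2 deletion. Against controls, 42, 36, 41 and 25 genes were then called higher in the YAP Sox9-null, YAP Sox9-heterozygous, Mst Sox9-null and Mst Sox9-heterozygous groups, where 23.2%, 8.77%, 21.3% and 13.8% of all genes were. The call on the Sox9-loss difference therefore depends on that scale, while the group means are the same on both.

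**Figure D4:**
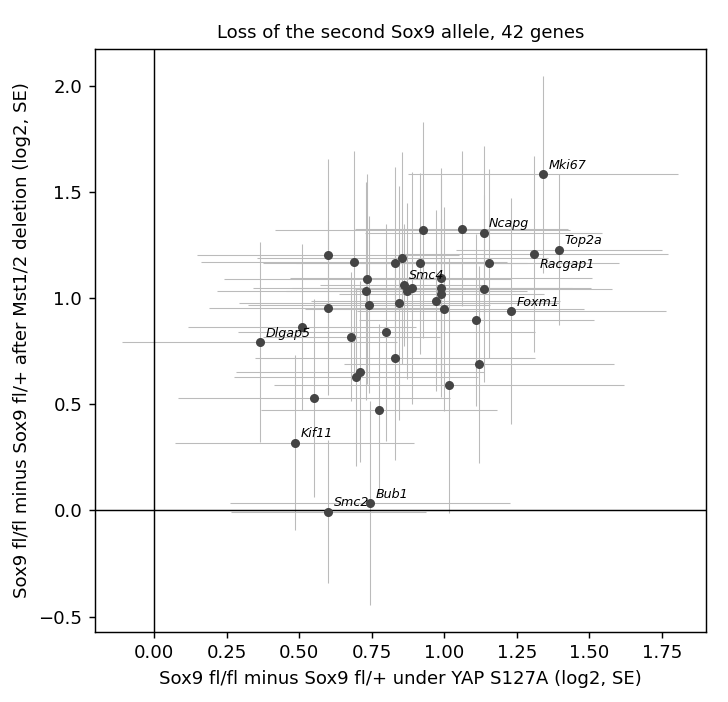
Log2 difference between Sox9 fl/fl and Sox9 fl/+ libraries for each of the 42 genes under YAP S127A (horizontal axis) and after Mst1/2 deletion (vertical axis), with standard errors from the fit as grey lines. All points but Smc2 lie above 0 on both axes, Bub1 falling below 0 on the vertical axis when library medians are set equal; Mki67 is highest after Mst1/2 deletion and Top2a farthest right under YAP S127A.

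The difference between the activation effects of the experiments was tested directly. Since both control groups had nearly the same mean for each gene in the deposited values (within 0.05 for 98.9% of kept genes), this test in effect compared the activated groups. For the Sox9-heterozygous groups the Mst effect minus the YAP effect had a median of -0.48 over the 42 genes, was negative for 34 and was called for none, where 0.197% of all genes were called. For the Sox9-null groups the median was -0.46, 36 were negative and none was called, where 0.272% of all genes were. In limma 2 genes had an unadjusted p under 0.05 in each, against 815 and 702 of all kept genes. These were Top2a (-1.23 ± 0.50, adjusted p = 0.573) and Mki67 (-1.5 ± 0.66, adjusted p = 0.61) for the heterozygous groups. For the Sox9-null groups they were Top2a (-1.40 ± 0.50, adjusted p = 0.531) and Bub1 (-1.65 ± 0.68, adjusted p = 0.631). The Sox9-loss effect after Mst1/2 deletion minus that under YAP S127A had a median of 0.08, with 26 genes positive, none called and none at an unadjusted p under 0.05, where 0% of all genes were called and 322 had such a p. These medians depended on single libraries. The heterozygous one was -0.98 without library 2 and -0.17 without library 1 of the wild type controls, and -0.085 without library 1 of the Mst heterozygous group. The Sox9-null one was -0.83 without library 2 and -0.063 without library 1 of the wild type controls, and -0.061 without library 2 of the Mst Sox9-null group. The Sox9-loss one ran between -0.39 without library 1 and 0.51 without library 2 of the YAP heterozygous group. On the step of the group means, Top2a and Mki67 were called lower for the heterozygous and Top2a, Ttk and Bub1 for the Sox9-null groups, where 2.4% and 2.81% of all genes were called lower. There Top2a had -1.23 ± 0.24 (adjusted p = 0.0181) for the heterozygous and -1.40 ± 0.24 (adjusted p = 0.0121) for the Sox9-null groups.

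Within groups the 42 genes shifted together between the 2 libraries. In the YAP Sox9-heterozygous group library 1 was higher for 38 of the 42 genes, against 59.1% of all kept genes. In the wild type controls library 2 was higher for 35, against 50.4% of all kept genes. In the Mst Sox9-heterozygous group library 2 was higher for 38, against 57.9%, and in the Mst Sox9-null group library 1 was higher for 35, against 57.1%. The YAP Sox9-null group was even, with 20 genes higher in each library and 2 equal, as were the floxed controls, with 19 higher in library 2 and 21 in library 1. The wild type controls had equal deposited values in both libraries for Cdc25c, Bub1 and Kif4, and 8 genes had such a pair in some group. The summed CPM of endothelial markers was higher in the same library as the mitotic genes in each of the 4 uneven groups. That of macrophage markers was so in the wild type, Mst Sox9-heterozygous and Mst Sox9-null groups, and was nearly level in the YAP Sox9-heterozygous group. The endothelial sum also differed, at 432 and 204, in the YAP Sox9-null group, where the mitotic genes were even. It was closer in Mst Sox9-null libraries, at 506 and 473. The values of these markers are given with the other markers, and their part in these shifts was not tested.

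Across the 12 libraries the 861 pairs of these genes had a median Pearson r of 0.873, with a range of 0.244 to 0.996. The libraries share their groups, so these values mostly restate the group differences, and they are given without a test. Racgap1 followed the mean of the other genes most closely (r = 0.986), and Bub1 (r = 0.651) and Smc4 (r = 0.691) least. The median r of all kept genes with the mean of the 42 genes was 0.282. Outside the list, the 10 kept genes with the highest r were Ckap2l (0.985), Rras (0.985), Cdkn2c (0.984), Cdca3 (0.973), Plk4 (0.972), Aspm (0.972), App (0.969), H2-Q4 (0.969), Cdkn3 (0.967) and Ckap2 (0.967).

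A second list of 50 mitotic genes outside the 44, of which 41 were kept, moved in the same direction. In YAP Sox9-null hepatocytes 23 rose, where 6.64% of all genes did. The largest were Ckap2 (2.96), Cdca2 (2.75), Cdca3 (2.67) and Ckap2l (2.62). In Mst Sox9-null hepatocytes 17 rose, where 6.88% of all genes did. The largest there were Knstrn (2.73), Ckap2 (2.53), Cdca3 (2.38) and Sgol2a (2.34). Cdca2 was the 1 gene called in YAP Sox9-heterozygous hepatocytes (1.93), and limma called none in Mst Sox9-heterozygous hepatocytes or by Sox9 loss. Of all genes, 1.4% rose in YAP Sox9-heterozygous and 3.45% in Mst Sox9-heterozygous hepatocytes. Of this list, 17 genes had an unadjusted p under 0.05 in limma in Mst Sox9-heterozygous hepatocytes. By Sox9 loss 11 did under YAP S127A and 12 after Mst1/2 deletion. The counts of all kept genes at that p are given above for Sox9 loss and are not given for the activated groups. The medians of this list were 1.70 in YAP Sox9-null, 1.04 in YAP Sox9-heterozygous, 1.39 in Mst Sox9-null and 0.79 in Mst Sox9-heterozygous hepatocytes.

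The G1/S and replication list of 39 genes, with 34 kept, held fewer calls. Its medians were 0.79 in YAP Sox9-null, 0.43 in YAP Sox9-heterozygous, 0.46 in Mst Sox9-null and 0.13 in Mst Sox9-heterozygous hepatocytes. Ccnd1, cyclin D1, had 8.46 and 8.84 log2 CPM in YAP Sox9-null, 8.16 and 6.80 in YAP Sox9-heterozygous and 4.88 and 4.54 in wild type libraries. It had 9.15 and 8.67 in Mst Sox9-null, 7.58 and 8.32 in Mst Sox9-heterozygous and 4.81 and 4.59 in floxed control libraries. It rose in all 4 activated groups, by 3.94 in YAP Sox9-null, 2.77 in YAP Sox9-heterozygous, 4.21 in Mst Sox9-null and 3.25 in Mst Sox9-heterozygous hepatocytes. In YAP Sox9-null hepatocytes 7 genes of the list rose, among them Uhrf1 (2.81), Rrm2 (2.71), E2f1 (1.62) and Mcm2 (1.55). In Mst Sox9-null hepatocytes 4 rose, Ccnd1, Uhrf1 (1.58), Cdk6 (1.27) and Cdt1 (1.15). The heterozygous groups had Ccnd1 in both, Rrm2 in the YAP group (2.04) and a fall of the repressor gene E2f8 in the Mst group (-2.27). Of all genes, 6.64% rose in YAP Sox9-null, 1.4% in YAP Sox9-heterozygous, 6.88% in Mst Sox9-null and 3.45% in Mst Sox9-heterozygous hepatocytes. Ccne1 was called in no comparison, with 0.19 in YAP Sox9-null and 0.02 in Mst Sox9-null hepatocytes.

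None of 13 kept genes of the DREAM, MuvB and RB list was called. Genes that rose made up 6.64% of all genes in YAP Sox9-null and 1.4% in YAP Sox9-heterozygous hepatocytes. They made up 6.88% in Mst Sox9-null and 3.45% in Mst Sox9-heterozygous hepatocytes. At shares this low, the lack of a call among 13 genes does not set this list apart from all genes. Tfdp1, which encodes a partner of E2F, had 0.89 (adjusted p = 0.0511) and Rbl1 1.14 (adjusted p = 0.0747) in YAP Sox9-null hepatocytes. In limma 3 and 2 of the 13 genes had an unadjusted p under 0.05 in the YAP Sox9-null and YAP Sox9-heterozygous groups. In the Mst Sox9-null and Mst Sox9-heterozygous groups 0 and 1 did. The counts of all kept genes at that p are not given, so these counts are not read against them. Mybl2, the gene of B-Myb, did not pass the filter, with values between -0.83 and 1.55 log2 CPM. Of 14 kept genes that restrain the cycle, 7 rose in YAP Sox9-null, 2 in YAP Sox9-heterozygous, 3 in Mst Sox9-null and 1 in Mst Sox9-heterozygous hepatocytes. In the same order 6.64%, 1.4%, 6.88% and 3.45% of all genes rose. In YAP Sox9-null hepatocytes the genes of this list that rose included the inhibitor genes Cdkn2c (1.89), Cdkn1a (1.78), Cdkn1c (1.83) and Cdkn1b (1.51), and the Cdk1-inhibiting kinase genes Pkmyt1 (1.96) and Wee1 (1.41). In Mst Sox9-null hepatocytes they were Gadd45b (2.79), Cdkn2c (1.80) and Wee1 (1.45). Cdkn1a was not called there, at 0.50.

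Some markers of other cell types moved with activation. All 11 hepatocyte markers in the table were at log2 CPM 1 or more in every library. Limma called none of them. At an unadjusted p under 0.05 in limma, 2, 1, 3 and 3 lay below control in the YAP Sox9-null, YAP Sox9-heterozygous, Mst Sox9-null and Mst Sox9-heterozygous groups, and none above. These were Tat (-1.13) and Ttr (-1.01) in YAP Sox9-null and Hnf4a (-0.70) in YAP Sox9-heterozygous hepatocytes. They were Tat (-1.495), Pck1 (-1.49) and Ttr (-1.33) in Mst Sox9-null and Ttr (-1.30), Tat (-1.195) and Hnf4a (-0.71) in Mst Sox9-heterozygous hepatocytes. Of 17 kept endothelial markers, 6 rose in YAP Sox9-null, 2 in YAP Sox9-heterozygous, 11 in Mst Sox9-null and 9 in Mst Sox9-heterozygous hepatocytes. In the same order 6.64%, 1.4%, 6.88% and 3.45% of all genes rose. Emcn was below log2 CPM 1 in every library. The summed CPM of the endothelial markers, library 1 first, was 432 and 204 in YAP Sox9-null, 232 and 147 in YAP Sox9-heterozygous and 41.9 and 107 in wild type libraries. In the Mst experiment it was 506 and 473 in Sox9-null, 462 and 561 in Sox9-heterozygous and 59.6 and 69.4 in control libraries. Macrophage marker sums in the same order were 342 and 79.8 in Mst Sox9-null, 51.2 and 158 in Mst Sox9-heterozygous and 35.7 and 49.8 in floxed control libraries. Cd68 (2.05) and Csf1r (1.91) were called in the Mst Sox9-null group, where 6.88% of all genes rose. In that group C1qa, C1qc and Adgre1 had -0.1, 0.006 and 0.26, and the other tested markers were above 0 and not called. In the YAP experiment the macrophage sums were 106 and 69.8 in Sox9-null, 52.7 and 54.0 in Sox9-heterozygous and 25.6 and 85.1 in wild type libraries. Limma called no macrophage marker there, with 2 in YAP Sox9-null and 0 in YAP Sox9-heterozygous hepatocytes at an unadjusted p under 0.05. Cd74 had 7.73 and 5.75 log2 CPM in Mst Sox9-null, 4.29 and 6.47 in Mst Sox9-heterozygous and 4.04 and 3.83 in floxed control libraries and rose in the Sox9-null group (2.80). The B cell genes Cd79b and Ms4a1 and the T and NK cell genes Cd3e, Nkg7 and Il2rb stayed below log2 CPM 1 everywhere. Of the stellate markers Dcn alone was called. It rose in both Mst groups (2.59 in Sox9-null and 2.25 in Sox9-heterozygous), where 6.88% and 3.45% of all genes rose. Reln alone of those tested lay below 0 there, at -0.605 in Mst Sox9-null and -1.465 in Mst Sox9-heterozygous hepatocytes. Des, Ngfr and Hhip were below log2 CPM 1 everywhere. Among cholangiocyte markers other than Sox9, Krt23 rose in both Mst groups (4.09 in Sox9-null and 3.91 in Sox9-heterozygous). Prom1 rose in both Sox9-null groups, Aqp1 in both Sox9-null groups and in Mst Sox9-heterozygous and Epcam in YAP Sox9-heterozygous hepatocytes, with Krt7, Cftr and Sctr below log2 CPM 1 everywhere. No neutrophil marker passed the filter, so none was tested. Of the erythroid markers Alas2 alone was tested, and it was not called. The part of other cells in the mitotic gene differences was not tested.

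Birc5, Top2a, Aurkb and Hmmr lie on chromosome 11 with Sox9, at distances of 5.06, 13.8, 43.7 and 72 Mb in GRCm38. Their Sox9-loss differences under YAP S127A were 0.83, 1.40, 0.99 and 1.01, and after Mst1/2 deletion 0.72, 1.23, 1.09 and 0.59, none called. Birc5, the nearest, was below the median of the 42 genes in both experiments. Top2a and Aurkb were above it in both, and Hmmr was above it under YAP S127A and below it after Mst1/2 deletion. A part of their position in these differences was not tested.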

How the data were processed

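RNA of sorted hepatocytes was copied to cDNA, amplified with the Ion AmpliSeq mouse transcriptome panel (1 amplicon per gene) and sequenced on an Ion S5 instrument, per the labels' protocols. The authors deposited 1 table of log2 CPM for 16116 genes and 12 libraries, with whole-library sums of 879620 to 1011693 on the linear scale; the labels name the unit RPM as well. Aligner, counting method and genome build: not given in the sources used here. Reads per library are unknown, so no counting error could be given. In the deposited values, gene means of both GFP groups differed by a median of 0.00849, and within-group deviations were, in each of 16080 genes with any, multiples of a step of that gene's own (tolerance 2e-06), wider than the 0.005 step of the group means by a gene's own factor. Median within-group SD was 0.288 as deposited and 0.187 with this factor removed.

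The filter (log2 CPM 1 or more in 2 or more libraries) left 10681 genes. Group means were fitted to all 12 libraries with limma 3.58.1 (trend) in R 4.3.3, without a replicate block, and two-sided p-values were adjusted by Benjamini-Hochberg over all kept genes at 0.05. The procedure was tested on simulated data. The p-values measure the deposited spread between libraries, which is wider by each gene's own factor given above and may be technical. Differences are log2 with SE. Counts at an unadjusted p in the activated groups are given without the count of all kept genes and are not read against it. Levels are not compared between genes, since amplicons differ. Genes given in every library were 20 set by role and the 3 largest and 3 smallest changes per comparison; Ccnb1 among them had no row. Of other lists up to 4 called genes were named, with a set of always-named genes. Promoter sequences are RefSeq, GRCm38.p6. The members and lists were chosen with earlier results of these data known, and the E2F, TEAD, CHR and CCAAT letters were searched as stated; the 50-base window around the start was added later. Alternatives were no or a stricter filter (log2 CPM 3), a pseudocount of 1, equal library medians, quantile normalisation, each experiment alone, no trend, a replicate block and leaving out each library.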

Additional observations from a re-analysis of the deposited data

How the results depend on the processing

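Members called are given in the order YAP Sox9-null, YAP Sox9-heterozygous, Mst Sox9-null and Mst Sox9-heterozygous against controls (37, 11, 30 and 8 as reported). Without the low-value filter they were 24, 1, 15 and 0, and with quantile normalisation 27, 8, 22 and 5. With the deviations put back on the step of the group means they were 42, 36, 41 and 25, and Sox9 loss gave 13 (YAP), 11 (Mst) and 31 (both), with 2 and 3 lower for the activation differences between experiments (Sox9-heterozygous and Sox9-null). Each experiment fitted alone gave 3 in Mst Sox9-heterozygous, and no trend gave 3 and 0 in the YAP and Mst heterozygous groups. An added pseudocount gave 1 for Sox9 loss over both experiments. Apart from the deviations put back on the step of the group means, whose shares are given above, counts of all genes under these settings are not given.

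Same-numbered deviations correlated at -0.0627 to -0.117 in the YAP and -0.315 to -0.644 in the Mst experiment, so replicate numbers were not used as pairs. These correlations cannot tell whether libraries with different numbers shared a batch. With the replicate block, 17 were called in YAP Sox9-heterozygous and 2 for Sox9 loss over both experiments.

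Leaving out 1 library, where the lone library is taken to vary like the others, gave 17 to 39, 1 to 15, 13 to 31 and 0 to 11 for activation, 0 to 0 for each Sox9 loss, 0 to 6 for Sox9 loss over both and 0 for every difference between experiments. The members' median ranged over 1.79 to 2.66 in YAP Sox9-null, 0.98 to 1.97 in YAP Sox9-heterozygous, 1.55 to 2.18 in Mst Sox9-null and 0.50 to 1.32 in Mst Sox9-heterozygous hepatocytes, the lowest of these last being without library 2 of that group. It ranged over 0.47 to 1.29 (YAP), 0.57 to 1.31 (Mst) and 0.72 to 1.15 (both) for Sox9 loss. For the differences between experiments it ranged over -0.98 to -0.085 (Sox9-heterozygous), -0.83 to -0.061 (Sox9-null) and -0.39 to 0.51 (Sox9 loss).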
